A study of Mus musculus with 20 samples.

Results

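Type I interferon-stimulated antiviral genes were followed in primary mouse cardiac fibroblasts after deletion or overexpression of Hyal2, which encodes a hyaluronidase. The members were a list of 43 genes taken by symbol, of 55414 gene rows in the count table, with no threshold on measured values. All 43 had a row and all 43 passed the filter on low counts, so no member was lost. RNA-seq gene counts came from 20 cultures in 5 groups of 4. Cre_TGFB cultures received a Cre recombinase adenovirus and TGFB, and GFP_TGFB cultures a GFP adenovirus and TGFB. Cre, Hyal2 and GFP cultures received the Cre, the Hyal2 overexpression and the GFP adenovirus without TGFB. All 20 cultures came from hearts of mice with a loxP-flanked Hyal2 gene (Hyal2 fl/fl) per the treatment protocol, although the genotype label reads wild type C57BL/6J. All were serum starved for 24 h, exposed to virus for 5 h and collected after 48 h of stimulation at 20 ng/mL. The protocol names bFGF and TGFB for that step, and its wording does not settle whether the cultures without TGFB received bFGF instead. Replicates 1 and 2 of each group were female and replicates 3 and 4 male, and the library names give each replicate number 1 isolate code in all 5 groups. The labels name the Cre groups as knock-outs of Hyal2 exon 2, and they state neither the age of the mice nor whether hearts were pooled. No group had Cre virus in cells without loxP sites, so loss of Hyal2 and the Cre virus itself cannot be told apart, and no group lacked virus.

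Type I interferons bind the receptor formed by Ifnar1 and Ifnar2, whose kinases Jak1 and Tyk2 activate transcription factors. Stat2 and Irf9 are part of a complex that binds interferon-stimulated response elements, which carry a repeat of GAAA, in the promoters of interferon-stimulated genes. The products of those genes block viral entry, translation, replication and budding, and fibroblasts are among the cells that make and answer type I interferon after viral infection.

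Promoter stretches of 5 members are shown because they hold the response element core before the start of the gene. They belong to the up to 2 members of each role group with a match and the smallest p between Cre and GFP cultures with the replicate block described below. RefSeq promoter windows (GRCm38.p6) from 250 bases before to 50 after an annotated start were found for 34 of the 43 members, and they were searched on both strands for GAAA, any 2 bases and GAAA again, a motif of 10 bases. Capitals mark the matches, which read TTTC, any 2 bases and TTTC where the match lies on the opposite strand. Overlapping matches run together in capitals. Only bases before the start are printed, which leaves out Trim21, whose matches lie after it. They read 5′ to 3′ on the strand of the gene and lie at chr19:34583348-34583441 (Ifit3, plus strand), chr19:34607744-34607837 (Ifit3b, plus strand), chr4:156200850-156200921 (Isg15, minus strand), chr17:36836961-36837026 (Trim26, plus strand) and chr11:78984945-78985004 (Lgals9, minus strand).
Ifit3: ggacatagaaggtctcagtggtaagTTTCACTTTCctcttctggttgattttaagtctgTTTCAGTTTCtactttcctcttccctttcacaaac
Ifit3b: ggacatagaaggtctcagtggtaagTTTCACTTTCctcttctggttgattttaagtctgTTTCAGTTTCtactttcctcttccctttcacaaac
Isg15: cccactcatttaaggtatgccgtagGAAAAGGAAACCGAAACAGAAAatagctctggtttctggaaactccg
Trim26: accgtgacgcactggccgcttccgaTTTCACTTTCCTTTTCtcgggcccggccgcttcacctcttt
Lgals9: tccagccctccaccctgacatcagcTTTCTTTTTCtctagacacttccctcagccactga

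Isg15 held 3 overlapping matches, the first starting 78 bases before the annotated start. Ifit3 and its tandem copy Ifit3b held 2 each, and the 94 printed bases were identical in both genes at all 94 positions. Over the overlap of the whole windows, set side by side without gaps, 201 of 268 bases (75%) were identical. A shift by an inserted or lost base would lower that share. Whether reads were shared in counting between this pair, or between Oas1a and the other Oas1 genes, was not tested, and the values of Ifit3, Ifit3b and Oas1a are uncertain to that extent. In all, 14 of 34 members with a window held the 10-base motif (41.2%), against 1079 of 27025 genes with a window (3.99%). Among the antiviral effectors 10 of 17 held it (58.8%), among the ISG15 genes 1 of 4, among the nuclear regulators 2 of 7 and among the others 1 of 6. The shorter GAAANNGAA, which lies within it, lay in 18 of 34 members (52.9%) and in 9.76% of all genes with a window. A match is a run of letters and not a measured binding site, and windows for Mx1, Mx2, Usp18, Oas2, Parp9, Parp14, Rtp4, Ifi27 and Ifi27l2a were not used here.

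**Figure D1:**
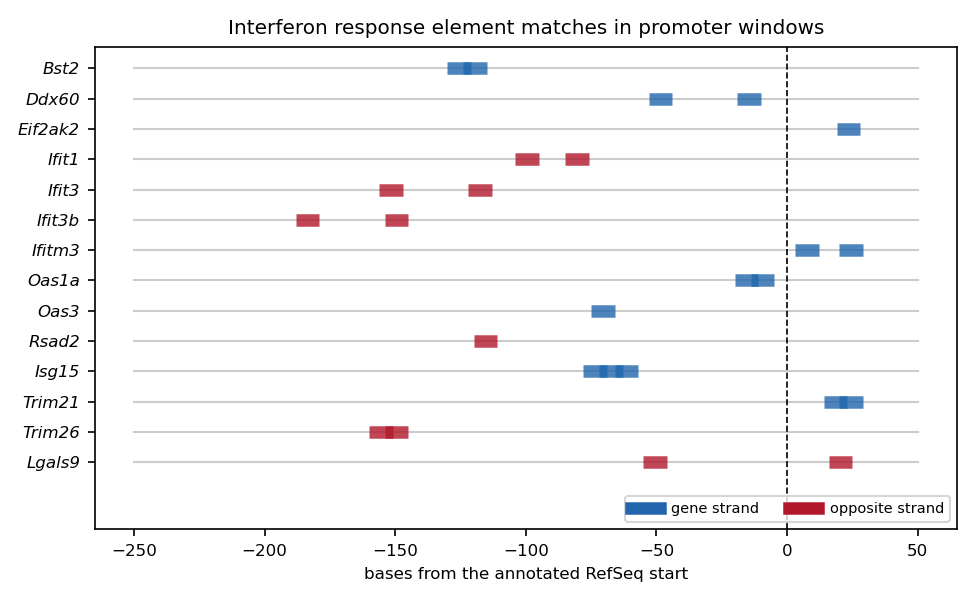
Positions of matches to the 10-base response element motif in the promoter windows of the 14 members that held one; the x axis gives bases from the annotated RefSeq start (dashed line), and blue and red bars are matches on the strand of the gene and on the opposite strand. The 26 matches start between 188 bases before and 20 bases after the start, and the 3 of Isg15 and the pairs of Bst2, Oas1a, Trim21 and Trim26 overlap.

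The labelled cell type and virus effect were checked first. Library totals ranged from 38.6 to 104.8 M counts. Hyal2 averaged 7.42 CPM in Cre_TGFB, 36.8 CPM in GFP_TGFB, 10.4 CPM in Cre, 934 CPM in Hyal2 and 41.2 CPM in GFP cultures (CPM, counts divided by the library total in M after TMM scaling). The summed level of 8 fibroblast markers, most of it Col1a1 and Col1a2, lay between 24520 and 38360 CPM in every library. With TGFB 6 of the 8 fell with either virus and Col1a1 rose. Dcn averaged 340.7 CPM in Cre_TGFB against 1207 CPM in Cre, and 326 CPM in GFP_TGFB against 1337 CPM in GFP cultures. Pdgfra averaged 166 CPM in Cre_TGFB against 977 CPM in Cre, and 153 CPM in GFP_TGFB against 1016 CPM in GFP cultures. The part of this change in other results was not tested. Of the leukocyte markers, 10 of 13 passed the count filter.

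The members spanned a wide range of levels in GFP cultures. Per kb of exon, Ifitm3, a membrane protein that blocks fusion of incoming virus, stood highest at 1139 CPM per kb. Ifi27l2a (302 CPM per kb), Bst2, which tethers budding virus (292), Lgals3bp (272) and Isg15 (223) followed. Epsti1 (0.21 CPM per kb), Oas3 (0.48) and Mx1 (0.50) were lowest, and the smallest count of a member in any library was 3 (Epsti1). Group means were highest in Cre cultures for 42 of 43 members and lowest in GFP_TGFB for 32.

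Replicates of a group differed more in these genes than in most. The median coefficient of variation over members was 18.3% in Cre_TGFB, 14.2% in GFP_TGFB, 27.1% in Cre, 39.1% in Hyal2 and 23.8% in GFP cultures. Over the 12473 genes above 1 CPM it was 9.11%, 8.27%, 9.77%, 11.7% and 10.5% in the same groups. In the Hyal2 group, replicate 4 stood above the GFP mean for 40 of 43 members (median log2 difference 0.42) and replicate 3 for 2 (median -0.85). Among GFP cultures, replicate 4 likewise stood above the group mean for 40 members (median 0.39). Libraries of the same replicate number share an isolate code, and over all genes tested the same number correlated best in 33 of 40 pairs. Tests are therefore given without and with a block for the replicate, which compares cultures within an isolate.

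**Figure D2:**
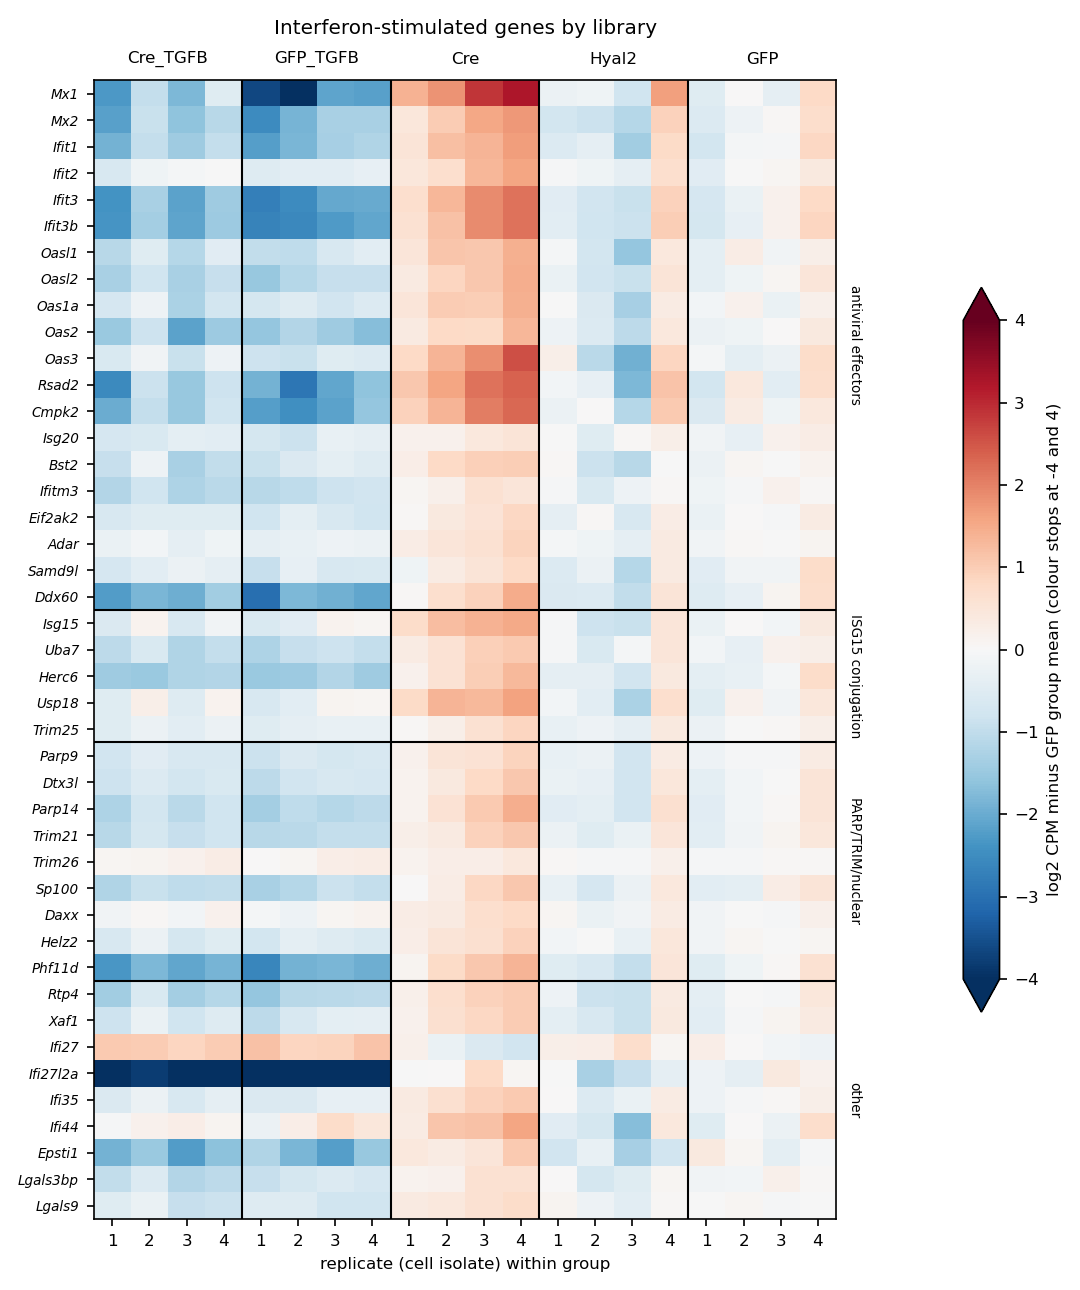
Heat map of the 43 members (rows, grouped by role) in the 20 libraries (columns, replicates 1 to 4 of each group); colour is the log2 CPM minus the mean log2 CPM of the 4 GFP libraries. Each of the 8 TGFB libraries is above the GFP mean for 2 to 6 members, each of the 4 Cre libraries for 41 or 42, and replicate 4 of Hyal2 and of GFP stands above the other replicates of its group.

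Cre against GFP cultures asks what changed with the Hyal2 deletion virus. The members lay higher in Cre cultures almost without exception: 42 of 43 had a log2 fold change above 0, against 49.8% of all genes tested, and the median was 0.74, against -0.00 for all genes. In every one of the 4 isolates 41 members were higher in Cre than in GFP, against 15.9% of all genes, with isolate medians of 0.57, 0.70, 0.89 and 0.81. Every Cre library stood above every GFP library for 17 members, against 2.01% of all genes. In bulk cultures like these, fewer cells of a type and less RNA per cell cannot be told apart.

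How many of these differences passed a test varied with the fit and with the isolates left out. Without the block, edgeR's quasi-likelihood test called 0 members (all genes 0.0064%), where a call means a p under 0.05 after Benjamini-Hochberg adjustment across the 15624 genes tested. At an unadjusted p under 0.05, 39 were higher (all genes 2.59%). limma-voom also called 0 (all genes 0.0064%), and DESeq2 called 9, all higher (all genes higher 0.218%). With the replicate block edgeR called 10 members, all higher (all genes higher 0.237%), and these 10 made up 27% of the 37 genes called higher. The 10 became 0 without isolate 1, 2 without isolate 2, 7 without isolate 3 and 0 without isolate 4. Added after the data were seen, DESeq2 with the block called 32 members (all genes higher 0.851%) and limma-voom with the block 18 (0.307%).

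Among the antiviral effectors, all 20 lay above 0, with a median of 1.02 and 6 called with the block. Mx1, a gene of the dynamin-like GTPase family, had 4.66, 6.18, 13.2 and 17.02 CPM in Cre cultures, against 1.27, 1.81, 1.37 and 3.12 CPM in GFP cultures. The lowest Cre culture stood above the highest GFP culture, and the 2 male isolates were highest within Cre. The log2 fold change of Mx1 was 2.44 (SE 0.55; edgeR adjusted p = 0.256, and 0.00612 with the block), the largest of the 43.

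Cmpk2, a mitochondrial nucleotide kinase encoded beside Rsad2, had 15.4, 20.7, 33.6 and 40.1 CPM in Cre cultures, against 5.44, 10.0, 7.14 and 10.8 CPM in GFP cultures. The groups did not overlap, and the log2 fold change was 1.71 (SE 0.38; edgeR adjusted p = 0.256, and 0.012 with the block). Its neighbour Rsad2, which makes a chain-terminating nucleotide, had a log2 change of 1.76 (SE 0.48) and was not called with the block (edgeR adjusted p = 0.0677).

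Ifit2, which belongs to a family that binds foreign RNA and limits its translation, had 24.3, 28.2, 44.7 and 53.0 CPM in Cre cultures, against 12.8, 17.7, 18.6 and 23.3 CPM in GFP cultures. The groups were separate by a narrow margin, and the log2 fold change was 1.05 (SE 0.24; edgeR adjusted p = 0.256, and 0.012 with the block). The related Ifit3 had a larger log2 change of 1.52 (SE 0.41) and passed with the block (edgeR adjusted p = 0.0306), as did its copy Ifit3b (1.46, SE 0.41; 0.0322). Cre and GFP libraries overlapped for both copies, because replicate 4 of GFP (231 CPM for Ifit3) stood above replicate 1 of Cre (212 CPM).

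Adar, which edits adenosines in double-stranded RNA, showed a smaller and even difference. It had 121, 137, 152 and 183 CPM in Cre cultures, against 89.7, 103, 98.3 and 106 CPM in GFP cultures. No libraries overlapped, and the log2 fold change was 0.58 (SE 0.13; edgeR adjusted p = 0.256, and 0.0155 with the block).

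The OAS enzymes, which make the 2′,5′-linked oligoadenylates that switch on RNase L, lay at log2 fold changes of 0.83 for Oas2 to 1.74 for Oas3, and the related Oasl1 and Oasl2 at 1.04 and 0.95. None of these passed with the block (edgeR adjusted p from 0.0609 for Oas3 to 0.312 for Oas2). Mx2, Ifit1, Ddx60, Bst2 and Eif2ak2, the kinase PKR that halts translation, lay at 1.19, 1.14, 0.79, 0.77 and 0.46 and did not pass with the block either. The lowest values of the effectors were those of Isg20, an exonuclease (0.31, SE 0.16), Samd9l, an inhibitor of translation (0.33, SE 0.27), and Ifitm3 (0.35, SE 0.14).

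ISG15 is a ubiquitin-like protein that is joined to other proteins by the enzyme Uba7 and the ligase Herc6 and removed by Usp18, which also damps the receptor. Isg15 had 275.5, 387, 433 and 471 CPM in Cre cultures, against 137, 166, 153 and 217 CPM in GFP cultures. The groups did not overlap, yet the adjusted p missed the threshold in both fits (log2 fold change 1.22, SE 0.28; edgeR adjusted p = 0.256, and 0.0556 with the block). Usp18 had a log2 fold change of similar size (1.25, SE 0.31; edgeR adjusted p = 0.0519 with the block), and Uba7, Herc6 and Trim25 lay at 0.74, 0.74 and 0.46. Of the 5 genes, 0 were called by edgeR with or without the block, 5 had an unadjusted p under 0.05 in the fit without it, limma-voom called 0 and DESeq2 called 2.

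Among the 9 PARP, TRIM and other nuclear regulators all 9 lay above 0, with a median of 0.61, and 3 were called with the block. Daxx, a histone chaperone of nuclear bodies, had 60.1, 62.8, 77.9 and 84.7 CPM in Cre cultures, against 44.6, 48.5, 48.0 and 56.1 CPM in GFP cultures. The groups did not overlap, and the log2 fold change was 0.53 (SE 0.13; edgeR adjusted p = 0.287, and 0.012 with the block). Helz2, a helicase and coactivator, lay at 0.61 (SE 0.15) and Trim26, a ubiquitin ligase, at 0.28 (SE 0.08), both at an edgeR adjusted p of 0.0306 with the block. The PARP family members Parp9 and Parp14, the ubiquitin ligases Dtx3l and Trim21, Sp100 of nuclear bodies and Phf11d lay between 0.55 and 0.84 and were not called.

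Of the 9 remaining members, 1 was called with the block. Ifi35, a leucine-zipper protein, had 62.3, 76.5, 92.3 and 101 CPM in Cre cultures, against 42.0, 46.7, 49.8 and 57.4 CPM in GFP cultures. All 4 Cre libraries stood above the 4 GFP libraries (log2 fold change 0.76, SE 0.17; edgeR adjusted p = 0.256, and 0.0196 with the block). Ifi44, Rtp4, Xaf1, a cofactor of cell death, Epsti1, the lectin Lgals9, the glycoprotein Lgals3bp and Ifi27l2a lay at 1.04, 0.70, 0.67, 0.59, 0.54, 0.39 and 0.23, and none was called. Ifi27, a mitochondrial membrane protein, was the single member below 0 (log2 fold change -0.31, SE 0.17; edgeR adjusted p = 0.926, and 0.57 with the block), and it was lower in Cre in all 4 isolates (all genes 13.2%). It had 96.2, 68.9, 55.4 and 49.1 CPM in Cre cultures, against 100.5, 84.3, 77.5 and 72.7 CPM in GFP cultures, and the groups overlapped.

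**Figure D3:**
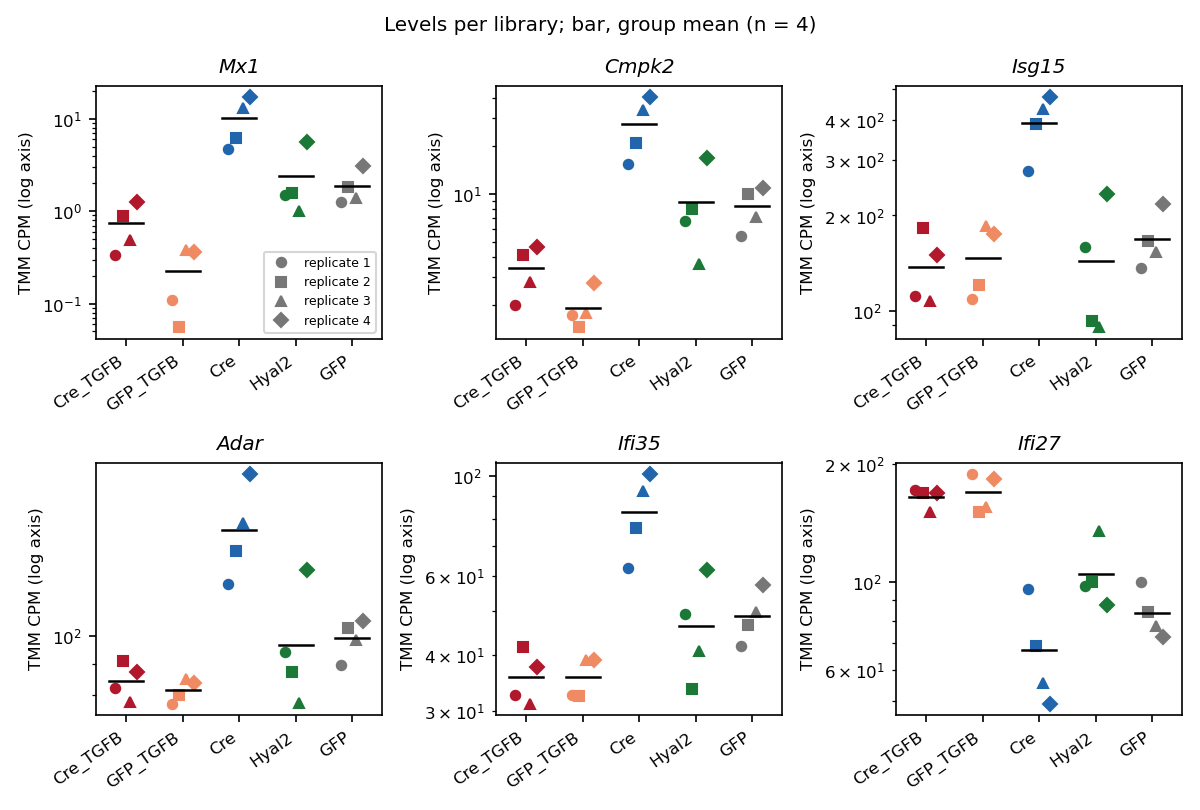
CPM (log axis) of 6 members in each library, by group; symbols are replicates 1 to 4 and bars are group means (n = 4). For Mx1, Cmpk2, Isg15, Adar and Ifi35 the 4 Cre cultures lie above the 4 GFP cultures, while Ifi27 is the reverse of the rest with TGFB, at 151 to 189 CPM in the 8 TGFB cultures.

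Cre against Hyal2 cultures sets the deletion virus against the overexpression virus and shares the Cre libraries with the previous comparison, so its values are not independent of it. The members were higher in Cre by a median log2 fold change of 1.02 (all genes -0.01), and 42 of 43 lay above 0 (all genes 47.9%). Without the block edgeR and limma-voom each called 0 members (all genes 0.0128%), with 42 higher and 1 lower at an unadjusted p under 0.05 (all genes 2.23% and 0.698%). DESeq2 called 28 higher and 1 lower (all genes 0.71%). With the block edgeR called 36 higher and 1 lower (all genes 0.992%), which was 16 of 20 effectors, 5 of 5 ISG15 genes, 9 of 9 nuclear regulators and, among the other 9, 6 higher and 1 lower. Added after the data were seen, DESeq2 with the block called 41 (all genes 1.21%) and limma-voom with the block 40 (1.05%). The total of 37 was 27 without isolate 1, 4 without isolate 2, 4 without isolate 3 and 28 without isolate 4. Without the block it was 19 when all replicate 4 libraries were left out, 19 without replicate 1 of Cre and 36 without replicate 4 of Hyal2.

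Isg15 had 275.5, 387, 433 and 471 CPM in Cre cultures, against 159.5, 92.7, 88.8 and 234 CPM in Hyal2 cultures. The groups did not overlap, and the log2 fold change was 1.45 (SE 0.28; edgeR adjusted p = 0.0838, and 0.00898 with the block). Ifi35 had 49.3, 33.6, 40.8 and 61.7 CPM in Hyal2 cultures, all below the Cre cultures, and a log2 change of 0.84 (SE 0.17; edgeR adjusted p = 0.0838, and 0.00557 with the block).

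Epsti1, named for its induction in epithelial cells by stroma, had 0.664, 0.62, 0.70 and 1.03 CPM in Cre cultures, against 0.271, 0.388, 0.172 and 0.27 CPM in Hyal2 cultures. These low levels did not overlap, and the log2 fold change was 1.45 (SE 0.28; edgeR adjusted p = 0.0838, and 0.00767 with the block). Ifi27 went the other way, at -0.64 (SE 0.17; edgeR adjusted p = 0.185, and 0.048 with the block). Every Cre library stood above all GFP and all Hyal2 libraries for 7 members (Oasl1, Oas1a, Bst2, Isg15, Usp18, Ifi35 and Lgals9), against 0.435% of all genes.

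Hyal2 against GFP cultures shares the GFP libraries with the comparison of Cre and GFP and the Hyal2 libraries with that of Cre and Hyal2. Hyal2 overexpression gave no called member. edgeR called 0 with and without the block (all genes 0.0064%), DESeq2 and limma-voom called 0 (also 0.0064%), and 1 member, Epsti1, was lower at an unadjusted p under 0.05 in the fit without the block (all genes 1.09%). The median was -0.19 (all genes -0.00), with 7 of 43 above 0 (all genes 48.7%). The 4 isolates did not move alike: their medians were 0.11, -0.35, -0.81 and 0.07, and without 1 replicate at a time the median ranged from -0.56 to -0.00. Hyal2 itself was uneven in the Hyal2 group, at 1211, 706, 399 and 1419 CPM in replicates 1 to 4. The part of this spread in the member values was not tested.

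The 3 members with the smallest p in that comparison all belonged to the remaining genes. Epsti1 had the values above in Hyal2 cultures, against 0.644, 0.509, 0.36 and 0.468 CPM in GFP cultures, and replicate 2 of Hyal2 overlapped with replicate 3 of GFP (log2 fold change -0.85, SE 0.29; edgeR adjusted p = 1). Ifi27 had 98.1, 100.1, 135 and 87.7 CPM in Hyal2 cultures, overlapping with GFP (0.33, SE 0.17; edgeR adjusted p = 1). Ifi27l2a, a small relative of Ifi27, had 136, 55.6, 71.5 and 108 CPM in Hyal2 cultures, against 118, 107, 179 and 155 CPM in GFP cultures, again with overlap (-0.59, SE 0.31; edgeR adjusted p = 1).

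**Figure D4:**
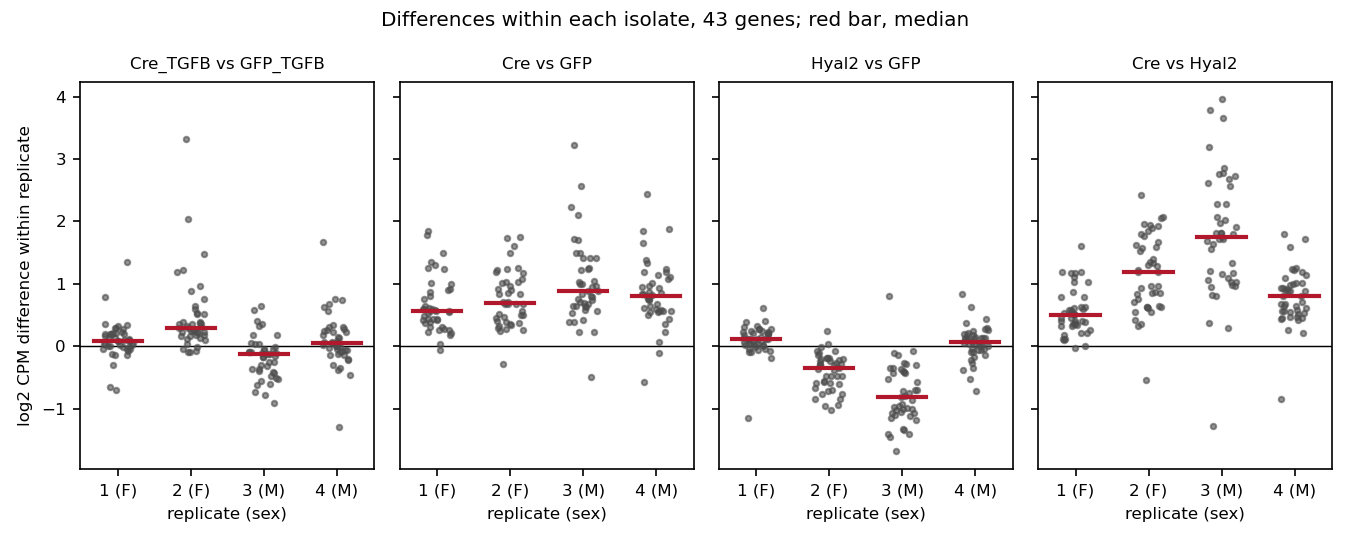
Log2 CPM difference of each of the 43 members within each replicate (isolate; F female, M male) for 4 pairs of groups; each point is a member and the red bar is the median. The Cre over GFP medians lie at 0.57, 0.70, 0.89 and 0.81, whereas those of Cre_TGFB over GFP_TGFB lie between -0.13 and 0.29 and those of Hyal2 over GFP between -0.81 and 0.11.

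TGFB, a cytokine that turns fibroblasts into matrix-producing myofibroblasts, was compared in cultures with the GFP virus. The members were mostly lower with it: edgeR called 32 of 43 lower (all genes 28.6%) and 1 higher (26.6%). The median log2 fold change was -0.77 (all genes -0.02). With TGFB, members and pathway genes are counted as having fallen or risen only where called. edgeR called 55.3% of all genes in this comparison, so a change was common outside the list too. Whether the cultures without TGFB received bFGF is not settled, so TGFB and a lack of bFGF cannot be told apart with either virus. With the block 35 fell and 2 rose (all genes 61.9%). Of the 32 that fell, 18 fell at least 2-fold (all genes 12.6%), and for 33 members every GFP_TGFB library lay below every GFP library (all genes 25.5%).

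The largest fall was that of Ifi27l2a, which had 6.61, 6.81, 5.79 and 5.62 CPM in GFP_TGFB cultures, against 118, 107, 179 and 155 CPM in GFP cultures. All 4 cultures with TGFB stood far below those without it, a 22.5-fold lower level (log2 fold change -4.49, SE 0.37, edgeR adjusted p = 6.53e-09). Phf11d, a PHD finger protein, had 7.72, 12.8, 13.5 and 12.4 CPM in GFP_TGFB cultures, against 33.9, 42.7, 49.5 and 72.7 CPM in GFP cultures, without overlap (-2.09, SE 0.31, edgeR adjusted p = 1.18e-05).

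Ifitm3 had 360, 380, 438 and 449 CPM in GFP_TGFB cultures, against 685, 737, 873 and 794 CPM in GFP cultures. Its groups did not overlap either, at a log2 change of -0.93 (SE 0.14, edgeR adjusted p = 1.69e-05). The ISG15 ligase Herc6 had 4.69, 4.82, 5.84 and 4.91 CPM in GFP_TGFB cultures, against 10.1, 10.9, 12.7 and 22.3 CPM in GFP cultures, all 4 lower with TGFB (-1.47, SE 0.27, edgeR adjusted p = 0.000134).

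By role, 16 of 20 effectors fell, with a median of -1.04. Mx1 fell most of these, by 3.14 on the log2 scale (SE 0.70, edgeR adjusted p = 0.000844), to 0.23 ± 0.17 CPM in GFP_TGFB cultures, against 1.89 ± 0.85 CPM in GFP cultures (SD, n = 4 each). GFP_TGFB libraries held only 4 to 15 counts of Mx1, so the size of its fall is uncertain. Ifit3b, Ifit3, Ddx60, a helicase, Rsad2 and Cmpk2 fell by 2.13 to 2.51 on the log2 scale. Ifit2 (-0.46), Adar (-0.28), Oas1a (-0.64) and Oas3 (-0.76) were not called, of which the first 3 were called lower with the block (edgeR adjusted p = 0.0336, 0.0203 and 0.0277). Bst2 passed without the block and missed with it (-0.59, SE 0.24; edgeR adjusted p = 0.0485, and 0.0656 with the block). Of the 5 ISG15 genes Herc6 and Uba7 fell, and Trim25 passed with the block alone (-0.37; edgeR adjusted p = 0.0648, and 0.00746 with the block). Isg15 itself had 109, 121, 185 and 175 CPM in GFP_TGFB cultures, overlapping with GFP (-0.19, SE 0.27, edgeR adjusted p = 0.573), and Usp18 lay at -0.23 (edgeR adjusted p = 0.544).

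Of the nuclear regulators 7 of 9 fell and Daxx (-0.02) and Trim26 (0.18) did not. Trim26 was called higher with the block (edgeR adjusted p = 0.0627, and 0.00789 with the block). Of the other 9 members 7 fell, and Ifi44 lay at 0.28 (SE 0.34, edgeR adjusted p = 0.502). Ifi27 was the member that rose, with 189, 151, 156 and 183 CPM in GFP_TGFB cultures, against 100.5, 84.3, 77.5 and 72.7 CPM in GFP cultures. The groups did not overlap (log2 fold change 1.02, SE 0.17, edgeR adjusted p = 4.35e-05).

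TGFB was also compared in cultures with the Cre virus, most members being lower with it here as well. Between Cre_TGFB and Cre cultures 41 of 43 fell and Ifi27 rose (all genes 56.5% called, 29% lower), with a median of -1.58 (all genes -0.00), and 34 fell at least 2-fold (all genes 13%). Ifi27l2a had 5.38, 9.85, 3.91 and 2.28 CPM in Cre_TGFB cultures, against 137, 138, 236 and 145 CPM in Cre cultures, without overlap (-4.93, SE 0.37, edgeR adjusted p = 2.53e-09). Ifitm3 had 342, 443, 326 and 365 CPM in Cre_TGFB cultures, against 806, 889, 1174 and 1072 CPM in Cre cultures (-1.42, SE 0.14, edgeR adjusted p = 1.06e-07).

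Phf11d had 9.46, 13.8, 11.3 and 13.2 CPM in Cre_TGFB cultures, against 51.5, 81.0, 101 and 123 CPM in Cre cultures, again with full separation (-2.90, SE 0.32, edgeR adjusted p = 2.87e-07). Isg15 and Usp18 were among those that fell here, by 1.51 and 1.41 on the log2 scale (edgeR adjusted p = 0.000131 and 0.000791). Ifi27 rose by a log2 change of 1.29 (SE 0.17, edgeR adjusted p = 2.96e-06), and Trim26 was not called (-0.11, edgeR adjusted p = 0.241).

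**Figure D5:**
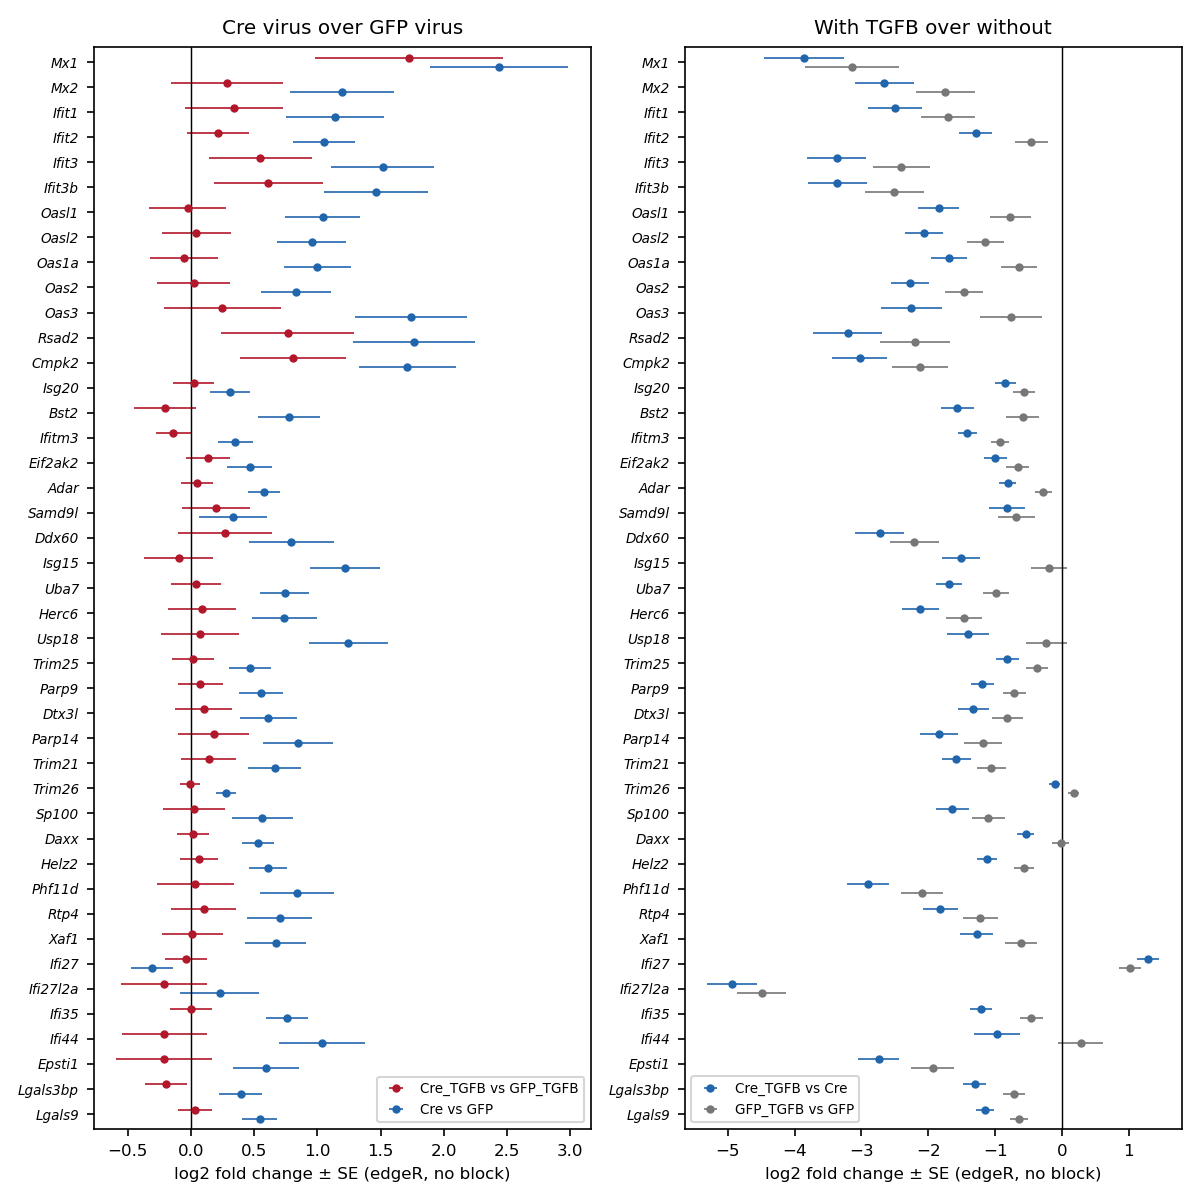
Log2 fold change ± SE of each member from edgeR without the block, n = 4 cultures a group. Left, Cre virus over GFP virus with TGFB (red) and without it (blue). Right, cultures with TGFB over those without it, for the Cre virus (blue) and the GFP virus (grey). Without TGFB the Cre effect lies above 0 for 42 members (median 0.74) and with it around 0 (median 0.04), and Ifi27 is the member that rose with TGFB in both backgrounds.

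Cre_TGFB against GFP_TGFB cultures asks the deletion question in the presence of TGFB. No member was called: edgeR called 0 with and without the block (all genes 0.0064%). DESeq2 called 0 (0.0128%) and limma-voom called 0 (0.0064%). At an unadjusted p under 0.05 there was 1 (Mx1, higher; all genes 0.614%), and 2 with the block (1.22%). The median was 0.04 (all genes 0.00), 32 of 43 lay above 0 (all genes 50.4%), and the groups overlapped for all 43 (0.717% of all genes were separate and higher, 0.851% separate and lower). In all 4 isolates 5 members were higher in Cre_TGFB (all genes 6.72%). The values of Mx1 rest on few counts, 26 to 48 a library in Cre_TGFB and 4 to 15 in GFP_TGFB cultures. Mx1 had 0.334, 0.889, 0.487 and 1.24 CPM in Cre_TGFB cultures, against 0.108, 0.0554, 0.383 and 0.366 CPM in GFP_TGFB cultures, higher in Cre_TGFB in all 4 isolates (log2 fold change 1.72, SE 0.75; edgeR adjusted p = 1, and 0.923 with the block). Cmpk2 had 2.02, 4.14, 2.80 and 4.67 CPM in Cre_TGFB cultures, against 1.73, 1.46, 1.79 and 2.76 CPM in GFP_TGFB cultures (0.81, SE 0.42; edgeR adjusted p = 1).

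Rsad2 had 1.76, 5.77, 3.66 and 5.81 CPM in Cre_TGFB cultures, against 2.79, 1.37, 2.42 and 3.42 CPM in GFP_TGFB cultures, with overlap (0.76, SE 0.53; edgeR adjusted p = 1). Isg15 lay at -0.10 (SE 0.27; edgeR adjusted p = 1). Its values in Cre_TGFB were 111, 182, 107 and 150 CPM, against 109, 121, 185 and 175 CPM in GFP_TGFB cultures.

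Whether the Cre effect changed with TGFB was tested as an interaction. It lay below 0 for 42 of 43 members (all genes above 0, 49%), with a median of -0.66 (all genes -0.00), and below 0 in all 4 isolates for 35 members (all genes 9.36%). No member was called by edgeR (all genes 0%), with or without the block, by DESeq2 or by limma-voom. At an unadjusted p under 0.05 there were 18, all below 0 (all genes 1.29%), and 33 with the block (2.78%). Isg15 had the smallest p, with a log2 difference of -1.32 (SE 0.39; edgeR adjusted p = 1, and 0.774 with the block), followed by Ifi35 (-0.76, SE 0.23) and Adar (-0.53, SE 0.18), at the same adjusted p-values. Thus a smaller Cre effect under TGFB was not shown for any single member at the threshold.

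Other genes of the pathway, from lists of ligands, receptors and kinases, transcription factors, sensors and feedback inhibitors, were counted in the same tests, and 23 were tested. Ifnb1, the fibroblast interferon, did not pass the count filter and had 11, 14, 1 and 4 counts in Cre cultures and 0, 5, 0 and 3 in GFP cultures, of 282.3 and 199.7 M counts in all. Over all 4 libraries of a group it had 3 counts in Cre_TGFB, 4 in GFP_TGFB and 1 in Hyal2 cultures. Its difference was therefore not tested.

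Between Cre and GFP cultures 0 of the 23 pathway genes were called by edgeR with or without the block, by DESeq2 or by limma-voom, while 11 were higher at an unadjusted p under 0.05 and 0 lower (2.59% of all genes were higher at that p). Irf7, a transcription factor that amplifies interferon production, had a log2 change of 1.02 (SE 0.32), Dhx58, a RIG-I-like receptor, 1.01 (SE 0.30), Zbp1, a sensor of Z-form nucleic acid, 0.81 (SE 0.28) and Stat2 0.72 (SE 0.22). The receptor genes Ifnar1 (-0.04) and Ifnar2 (0.03), Jak1 (0.03) and the adaptor Mavs (0.01) lay near 0. Between Cre and Hyal2 cultures 9 pathway genes were called higher with the block and 0 without it (0.992% of all genes in either direction with the block). Among them were Irf7 (1.55, SE 0.32; edgeR adjusted p = 0.0956, and 0.0474 with the block), Stat2, Irf9, Rigi, Ifih1, Dhx58, Tlr3 and Zbp1.

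With TGFB 17 of the 23 fell in cultures with the Cre virus and 17 in those with the GFP virus, and 0 rose. Of all genes, 29% were called lower with the Cre virus and 28.6% with the GFP virus. Zbp1 fell most, by 4.10 on the log2 scale with the Cre virus and 3.33 with the GFP virus (edgeR adjusted p = 3.07e-09 and 3.03e-08). Ifnar2 fell by 0.82 with the Cre virus and 0.72 with the GFP virus. Irf3, Cgas, Mavs, Tyk2, Ptpn2 and Ifnz were not called with either virus.

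Markers of leukocytes, which express many of the same genes, were summed. The sum over 13 markers was 109 to 271 CPM in Cre_TGFB, 114 to 280 CPM in GFP_TGFB, 163 to 426 CPM in Cre, 171 to 379 CPM in Hyal2 and 192 to 443 CPM in GFP cultures. Lyz2 made up most of it, Ptprc stood at 3.32 CPM in Cre and 3.26 CPM in GFP cultures, and Siglech, a marker of plasmacytoid dendritic cells, had 0 counts in all 20 libraries. The sum averaged 285 CPM in Cre and 299 CPM in GFP cultures, and within every group it was highest in replicate 1 and lowest in replicate 4. Its part in the difference between Cre and GFP cultures was not tested. With TGFB the mean of the leukocyte sum was lower along with the members, at 186 CPM in Cre_TGFB against 285 CPM in Cre and 187.5 CPM in GFP_TGFB against 299 CPM in GFP cultures, and its part in their fall was not tested. The sum over 6 endothelial markers was also lower with TGFB. It was 10.5 to 17.3 CPM in the 8 TGFB libraries, against 29.1 to 36.7 CPM in the others. Tek made up most of this fall. It averaged 4.87 CPM in Cre_TGFB against 20.6 CPM in Cre, and 5.01 CPM in GFP_TGFB against 20.8 CPM in GFP cultures. Cdh5 moved less, at 5.08 CPM against 6.45 CPM and 4.69 CPM against 6.60 CPM in the same pairs. The part of the endothelial sum was not tested either. The 5 pericyte markers did not move together with TGFB. Cspg4 rose to 60.4 CPM in Cre_TGFB, against 2.80 CPM in Cre, and to 64.7 CPM in GFP_TGFB, against 2.55 CPM in GFP cultures. The means of Kcnj8, Rgs5 and Abcc9 were lower with TGFB with both viruses, and Vtn did not pass the count filter. With the GFP virus, Rgs5 averaged 0.803 CPM in GFP_TGFB against 1.645 CPM in GFP cultures. Abcc9 averaged 0.166 CPM against 0.267 CPM in the same groups. The part of these markers was likewise not tested.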

How the data were processed

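The authors deposited a table of raw gene counts from RNA-seq of 20 mouse cardiac fibroblast cultures, in 5 groups of 4. Per the submitters' processing notes, FastQC 0.10.1, HTSeq 0.10.0 and the GRCm39 (mm39) genome were used, while the aligner, annotation release and strand setting were not given in the sources used here, so reads of overlapping and antisense genes cannot be told apart. Ensembl IDs were matched to symbols of the GENCODE M21 annotation (GRCm38), which named 52081 of 55414 gene rows. Exon lengths came from the same annotation. Of 31062 genes with a count, 15624 passed edgeR's filterByExpr (minimum count 10, minimum total 15) and were tested. Totals ranged from 38.6 to 104.8 M counts, so 3 counts, the limit for a count of 0, equal 0.0286 to 0.0777 CPM. This covers counting error only.

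The main test was edgeR 4.0.16's robust quasi-likelihood test (R 4.3.3) with TMM factors, 1 fit of all 5 groups and Benjamini-Hochberg adjustment over all genes tested. A gene was called at an adjusted p under 0.05. The replicate block, DESeq2 1.42.0, limma-voom (limma 3.58.1), other normalization, no count filter, only the groups compared and left-out replicates were alternatives. Fold changes of named genes and their SE are from the fit without the block, including where a blocked p stands beside them. Libraries with the same replicate number share an isolate code, and their deviations from the group means correlated above 0.1 in 40 of 40 pairs (0.114 to 0.712). Correlations with another replicate number reached 0.442, and in 33 of the 40 pairs the same number gave the highest value. The blocked value stands beside each result whose call it changed. Beyond these codes nothing states that replicates came from separate animals. None of 30 replicate pairs within a group held identical counts. The edgeR fit without the block was tested on counts simulated for Cre against GFP cultures, with no isolate effect.

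The members, lists and tests were chosen with earlier results of these data known. Per-library values are given for the 3 members with the smallest p in each comparison (6 for Cre against GFP) and for the member with the smallest p in each role group. Further members named with their fold changes were chosen after their values were seen. A further promoter motif that was searched is not reported here.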

Additional observations from a re-analysis of the deposited data

Results flagged for a closer look

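Among 70 sets of 4 libraries (14 members in 5 groups), 3 held a library far from the other 3, where chance gives about 1 in 20. Mx1 stood at 5.61 CPM in replicate 4 of Hyal2, against 1.58 CPM in the next library of that group. Ifi27 stood at 150.9 CPM in replicate 3 of Cre_TGFB, with the next at 168.5 CPM. Ifi27l2a stood at 235.5 CPM in replicate 3 of Cre, with the next at 145.1 CPM.

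The log2 difference of Isg15 between Cre_TGFB and GFP_TGFB was above 0 in both female isolates and below 0 in both male isolates. In female replicate 1 it was slight, at 111 CPM in Cre_TGFB against 109 CPM in GFP_TGFB. The female mean exceeded the male mean by 0.809, and this difference between the sexes was not tested.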

How the results depend on the processing

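No member count reversed direction. Between Cre and GFP cultures the 0 members called became 9 with DESeq2 and 10 with the replicate block, and, in fits added after seeing the data, 32 with DESeq2 and the block and 18 with limma-voom and the block. Leaving out 1 replicate gave 0 each time without the block and 0, 2, 7 and 0 (isolates 1 to 4) with it. The median log2 fold change, 0.74, was 0.59 without replicate 4 of Cre and ranged to 0.88. Between Cre and Hyal2 cultures the 0 called became 29 with DESeq2, 37 with the block, 41 with DESeq2 and the block and 40 with limma-voom and the block. Leaving out 1 replicate gave 0 to 36, and 27, 4, 4 and 28 (isolates 1 to 4) with the block. The cause was not tested. The calls with TGFB ranged from 40 to 42 members with the Cre virus and from 28 to 38 with the GFP virus over 24 alternatives. Of 648 values for 26 results on single genes, 587 kept their side of the threshold, 61 passed it under an alternative and 0 lost it. Members with few counts, such as Epsti1 and Mx1, are limited by depth.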
